A study of Homo sapiens with 2 samples.

Results

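A set of 8 genes, whose products make reactive oxygen species or nitric oxide or help such enzymes mature, was followed across 2 single-cell RNA libraries of human colon organoids. They are the dual oxidases DUOX1 and DUOX2, their maturation factors DUOXA1 and DUOXA2, the NADPH oxidases NOX1 and NOX4, the shared oxidase subunit CYBA, and the inducible nitric oxide synthase NOS2. The genes were chosen by symbol, with earlier results of these data known. All 8 were found among the 36601 genes listed in both libraries. Organoids had been grown from 1383D6, a human induced pluripotent stem cell line, by directed differentiation. One library came from untreated organoids (CNT), and the other from organoids given TNF-α, IFN-γ and IL-1β together for 8 days (3CK), in a study that set out to model ulcerative colitis. Both groups share 1 cell line and 1 differentiation protocol, and each has 1 library, so no difference between CNT and 3CK has a replicate check. No test across samples was possible, and every interval given here is a 95% interval that covers counting error only.

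Dual oxidases sit in the apical membrane of gut epithelium and release hydrogen peroxide into the lumen, where it takes part in defence against microbes. DUOX2 leaves the endoplasmic reticulum only in complex with DUOXA2, and DUOX1 likewise with DUOXA1. NOX1 and NOX4 belong to the same family, need p22phox, the product of CYBA, at the membrane, and make superoxide and hydrogen peroxide respectively, while NOS2 makes nitric oxide from arginine once inflammatory signals have switched its gene on. DUOX2, DUOXA2 and NOS2 are textbook genes of inflamed colon epithelium.

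DUOX2 and DUOXA2 lie back to back on chromosome 15, so the stretch between their starts is shown here because both genes are transcribed away from it. In the RefSeq annotation of GRCh38.p14, DUOX2 spans chr15:45092650-45114172 on the minus strand and DUOXA2 spans chr15:45114326-45118421 on the plus strand, which leaves 153 bases between them. That interval, chr15:45114173-45114325, is intergenic and is written on the plus strand, with capitals marking matches to the patterns searched.
DUOX2-DUOXA2 interval: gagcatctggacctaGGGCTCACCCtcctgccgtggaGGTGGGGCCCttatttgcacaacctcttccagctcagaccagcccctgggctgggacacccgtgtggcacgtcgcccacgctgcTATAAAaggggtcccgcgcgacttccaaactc
The patterns searched, on both strands, were TTCNNNGAA, found in gamma-activated sites bound by STAT proteins, GGG and CC parted by 5 bases, a loose core of NF-κB sites, a pair of GAAA parted by 2 bases, found in interferon-stimulated elements, and TATAAA. The interval held 2 matches to the NF-κB core, neither overlapping another pattern, the first 25 bases and the second 47 bases before the DUOX2 start, and 1 TATAAA 32 bases before the DUOXA2 start. Over all 35116 RefSeq promoter windows, each from 250 bases before to 50 after a start, the NF-κB core occurred in 58.7%, TATAAA in 11.5%, TTCNNNGAA in 7.66% and the GAAA pair in 3.57%. The windows of DUOX2 and DUOXA2 held neither TTCNNNGAA nor the GAAA pair, which says only that those letters are not in these windows. DUOXA1 (chr15:45117366-45129879, minus strand) and DUOX1 (chr15:45129994-45165574, plus strand) follow on the same chromosome. The ends of DUOXA2 and DUOXA1 overlap by 1056 bases on opposite strands, and whether the counting used strand is not given in the sources used here. Reads from that overlap may have been assigned to either gene.

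After filtering, 2487 CNT cells with a median of 28895 unique molecular identifiers (UMIs, 1 per captured RNA molecule) and 1398 3CK cells with a median of 62746 were kept. Cells were called epithelial at 2 or more EPCAM UMIs per 10000, and mesenchymal at 5 or more UMIs per 10000 of COL1A1, COL1A2 and COL3A1 together with EPCAM under 1. These are ranges of marker level rather than cell types. They held 1655 epithelial and 577 mesenchymal cells in CNT, 1016 and 124 in 3CK, and left 255 and 258 cells in neither class. EPCAM lay under 5 per 10000 in 252 CNT and 242 3CK epithelial cells, and 334 CNT and 94 3CK mesenchymal cells lay under 20 collagen UMIs per 10000 or held an EPCAM UMI. Median collagen UMIs per 10000 in epithelial cells were 0.923 in CNT and 0.0922 in 3CK. Checked against the label of colon epithelium, the epithelial class carried CDX2 at 80.1 UMIs per 1000000 (CPM) in CNT and 83.3 CPM in 3CK. CDX2 is 1 of 8 colon and hindgut markers listed, of which 3 lay under 1 CPM in each library. They ranged from CEACAM7 at 0.0659 CPM to CA2 at 114 CPM in CNT. In 3CK they ranged from HOXD13 at 0.0713 CPM to CDX2. HOXA13 was at 0.475 and 0.342 CPM. The epithelial class also carried 6 of 6 hepatic markers, with a summed level of 97809 CPM in CNT and 32117 CPM in 3CK, led by the plasma protein gene TTR. The 8 leukocyte markers summed to 97.5 CPM in CNT and 115 CPM in 3CK epithelial cells, from PTPRC at 0.237 and 0.0856 CPM to FCER1G at 48.2 and 49.5 CPM.

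DUOX2 and DUOXA2 were both much more abundant in the 3CK library, NOS2 was near 0 in CNT and well above it in 3CK, and NOX4 went the opposite way. Over all kept cells, DUOX2 stood at 72.2 CPM in CNT and at 402 CPM in 3CK, a 5.58-fold difference (log2 ratio 2.48, counting interval 2.44 to 2.52). DUOXA2 stood at 55.8 CPM in CNT and at 470.3 CPM in 3CK, 8.43-fold apart (log2 ratio 3.08, 3.04 to 3.12). Neither pair of counting intervals overlapped. Of the 8 genes, all of which reached 1 CPM in at least 1 library, 4 were at least 2-fold higher in 3CK and 1 was at least 2-fold lower, where 6.97% and 11.4% of the 17523 genes compared passed the same folds. The median log2 ratio was 1.04 over the 8 genes and -0.06 over all genes compared. Because the 8 genes were chosen with earlier results of these data known, these counts are not independent evidence of a direction. The same holds for the counts by class and for the gene lists below.

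NOS2 had the largest ratio of the 8. Its 81 UMIs in the whole CNT library gave 0.797 CPM, and its 4987 UMIs in 3CK gave 54.3 CPM, a 68.1-fold difference (log2 ratio 6.09, 5.77 to 6.42). It ranked 35th from the highest among the 17523 genes. NOX4, an oxidase that is active without a stimulus, had 2548 UMIs in CNT (25.1 CPM) and 72 UMIs in 3CK (0.784 CPM), 32.0-fold lower in 3CK (log2 ratio -5.00, -5.36 to -4.66). It ranked 18th from the lowest of all genes compared.

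Among the rest, NOX1, the colonic superoxide-producing oxidase, was scarce in both libraries, at 1.67 CPM in CNT and at 3.91 CPM in 3CK (log2 ratio 1.22, 0.96 to 1.50). CYBA was at 1065 CPM in CNT and at 1940 CPM in 3CK, 1.82-fold higher (log2 ratio 0.87, 0.85 to 0.88). The pair DUOX1 and DUOXA1 did not share the direction of the DUOX2 pair. DUOX1 was at 19.6 CPM in CNT and at 14.0 CPM in 3CK (log2 ratio -0.49, -0.59 to -0.38), and DUOXA1 at 12.9 and 10.8 CPM (log2 ratio -0.26, -0.38 to -0.14). Both lay below 2-fold.

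**Figure D1:**
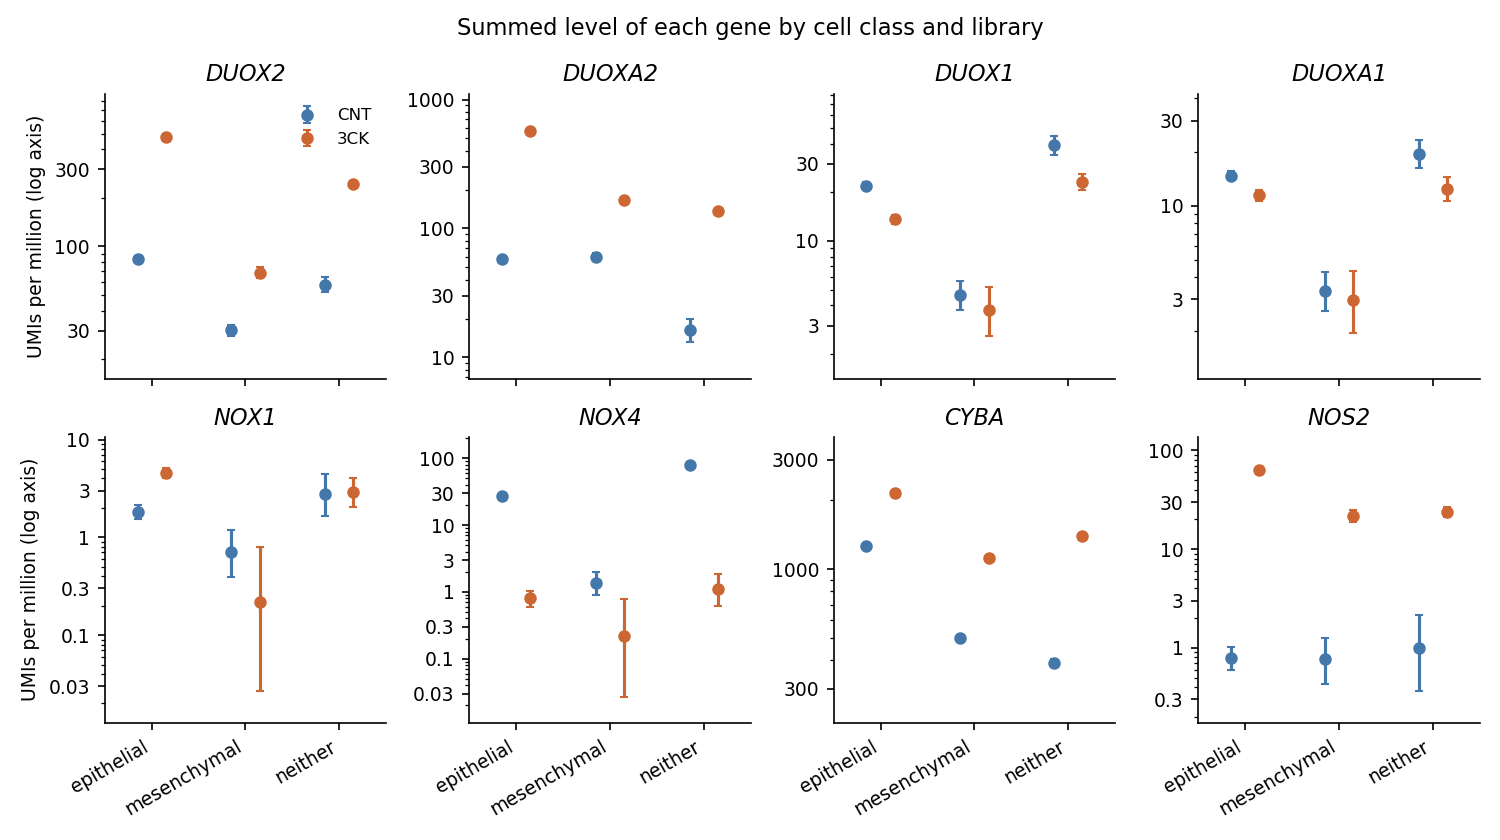
Summed level of each gene (CPM, log axis) in epithelial cells, mesenchymal cells and cells in neither class, with CNT in blue and 3CK in orange. Bars are exact Poisson 95% intervals and cover counting error only. The 3CK points lie above the CNT points in all 3 classes for DUOX2, DUOXA2, CYBA and NOS2, and below them in all 3 for NOX4.

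In epithelial cells, DUOX2 was at 84.1 CPM in CNT and at 474.5 CPM in 3CK, a 5.64-fold difference (log2 ratio 2.50, 2.46 to 2.53). DUOXA2 was at 57.7 and 570.5 CPM there, 9.88-fold higher in 3CK (log2 ratio 3.30, 3.26 to 3.35). Epithelial NOS2 went from 0.791 CPM in CNT to 64.0 CPM in 3CK (log2 ratio 6.34, 5.97 to 6.73), and epithelial NOX4 from 26.9 to 0.799 CPM (log2 ratio -5.07, -5.48 to -4.69). NOX1 was 2.49-fold higher (log2 ratio 1.32, 1.03 to 1.61) and CYBA 1.70-fold higher. DUOX1 was lower at a log2 ratio of -0.68 and DUOXA1 at -0.37. Again 4 of the 8 genes were at least 2-fold higher and 1 at least 2-fold lower, beside 8.47% and 12.2% of the 16830 genes compared in these cells.

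Mesenchymal cells showed the same directions for DUOX2, DUOXA2, NOS2 and CYBA from far fewer UMIs. COL1A1, COL1A2 and COL3A1, which set this class, were at 3009, 1537 and 3316 CPM in its CNT cells. In its 3CK cells they were lower, at 906, 604 and 1391 CPM. The rule may thus have taken in unlike cells in the 2 libraries, which was not tested. DUOX2 was at 30.2 CPM in CNT and at 68.7 CPM in 3CK (log2 ratio 1.18, 1.02 to 1.35), and fell under 2-fold, at 0.81, when every cell was given equal weight. DUOXA2 was at 60.5 and 165 CPM (log2 ratio 1.45, 1.34 to 1.56). NOS2 was at 0.763 and 21.6 CPM (log2 ratio 4.82, 4.07 to 5.69), or 3.27 with equal weight per cell. CYBA was at 501 and 1112 CPM (log2 ratio 1.15, 1.11 to 1.19). NOX4 had 27 UMIs in CNT and 2 in 3CK (log2 ratio -2.65, -5.76 to -0.65). For DUOX1 and DUOXA1 the counting intervals included no difference. Of the 7 genes that reached 1 CPM in these cells, 4 were at least 2-fold higher and 1 at least 2-fold lower, beside 6.04% and 16.7% of 17351 genes. In cells of neither class the counts were 4 and 1 of 8, beside 9.17% and 19.8% of 19497 genes. The higher genes were not the same throughout. Beside DUOX2, DUOXA2 and NOS2, NOX1 passed 2-fold over all cells and in epithelial cells. In mesenchymal cells and cells of neither class it was CYBA instead. NOX1 had a log2 ratio of 0.06 (-0.80 to 0.98) in cells of neither class.

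**Figure D2:**
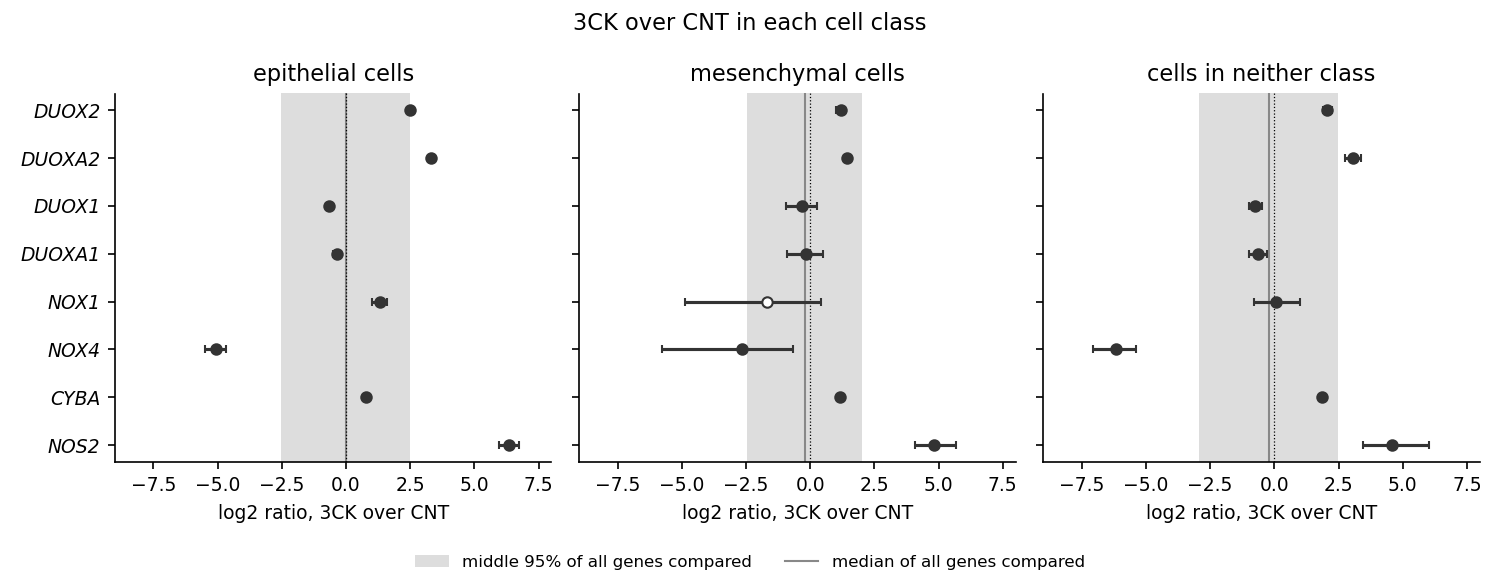
Log2 ratio of 3CK over CNT for each gene in the 3 cell classes, with 95% counting intervals. The grey band holds the middle 95% of all genes compared, the grey line is their median, and the open circle marks a gene under 1 CPM in both libraries. NOS2 lies to the right of the band in all 3 classes, at 6.34, 4.82 and 4.58, and NOX4 to the left of it, at -5.07, -2.65 and -6.16.

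The log2 ratio of DUOX2 was larger in epithelial than in mesenchymal cells by 1.31 (1.15 to 1.48), and that of NOS2 by 1.52 (0.67 to 2.36). With equal weight per cell the NOS2 ratios lay further apart, at 5.92 and 3.27. For DUOXA2 the difference was 1.86 (1.74 to 1.98), but it did not hold under stricter class limits. With at least 5 EPCAM UMIs per 10000 for epithelial cells, and at least 20 collagen UMIs per 10000 and no EPCAM for mesenchymal cells, DUOXA2 was at 63.6 and 656 CPM in epithelial cells and at 23.6 and 306 CPM in mesenchymal cells. Its log2 ratio was then 3.37 in the epithelial class and 3.69 in the mesenchymal class, which held 243 CNT and 30 3CK cells. For DUOX2 the order of the 2 ratios stayed as before, at 2.45 in epithelial and 1.25 in mesenchymal cells. CYBA had the smaller ratio in epithelial cells, by 0.39 on the log2 scale. All these differences share the limit that the collagens setting the mesenchymal class were lower in 3CK.

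Ordered by level, DUOX2 was highest in 3CK epithelial cells, followed by 3CK cells of neither class at 243 CPM and CNT epithelial cells. Next came 3CK mesenchymal cells at 68.7 CPM (63.4 to 74.3) and CNT cells of neither class at 58.1 CPM (52.2 to 64.5), whose intervals overlapped, and CNT mesenchymal cells were lowest. For DUOXA2 all 3 classes of 3CK lay above all 3 of CNT. Within CNT, mesenchymal cells at 60.5 CPM (57.1 to 64.0) and epithelial cells at 57.7 CPM (56.0 to 59.5) overlapped, and cells of neither class were lower at 16.2 CPM. NOS2 in 3CK was highest in epithelial cells, while its levels in mesenchymal cells and in cells of neither class, 21.6 and 23.7 CPM, overlapped. The 3 CNT values of NOS2, between 0.763 and 0.990 CPM, could not be told apart. NOX4 was highest in CNT cells of neither class at 79.2 CPM, then in CNT epithelial cells at 26.9 CPM, and the remaining values were 1.37 CPM or less.

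Epithelial cells carried more of most of these RNAs than mesenchymal cells within each library. In CNT, 6 of the 7 genes with at least 1 CPM were at least 2-fold higher in epithelial cells, and none lower, beside 15.2% and 26.1% of 18051 genes. In 3CK it was again 6 of 7, and none lower, beside 16.8% and 19% of 17176 genes. The log2 ratio of epithelial over mesenchymal cells for DUOX2 was 1.48 in CNT and 2.79 in 3CK, and for NOX4 it was 4.29 in CNT. For DUOX1 it was 2.24 and 1.87, and for DUOXA1 it was 2.14 and 1.95. DUOXA2 was the exception in CNT, with a log2 ratio of -0.07 (-0.16 to 0.03), which became 0.03 on a total without the most abundant genes and 1.43 under the stricter class limits. With equal weight per cell, DUOX1 at 0.87 and DUOX2 at 0.70 fell under 2-fold in CNT, NOX4 was at 1.90 there, and DUOX1 was at 0.81 in 3CK. The stricter limits put DUOX1 at 0.69 and NOS2 at 0.67 in 3CK, also under 2-fold. The 5 richest barcodes held 41.8% of the DUOXA2 UMIs of CNT mesenchymal cells, and 47.2% of those of 3CK mesenchymal cells. For NOS2 in 3CK mesenchymal cells the 5 richest of 124 held 78.7%.

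The mesenchymal levels were set beside those of epithelial and hepatic marker genes in the same barcodes. Of those 14 genes, the keratins KRT8, KRT18 and KRT19 stood at 103%, 114% and 32.7% of their epithelial level in CNT mesenchymal cells, and at 56.5%, 63.7% and 30.3% in 3CK. The other 11 markers lay between 1.87% for EPCAM and 10.8% for CDH1 in CNT, and between 0.935% for APOA2 and 4.20% for CLDN7 in 3CK. EPCAM was part of the rule that set the classes, so its low share was fixed in advance. The next lowest in CNT was APOA2 at 2.18%. How far the rule also lowered genes that vary with EPCAM was not tested. DUOX2 stood at 35.9% and 14.5%, DUOXA2 at 105% and 28.9%, and NOS2 at 33.7% in 3CK. NOX4 stood at 5.11% in CNT. These values lay above those of the 11 markers in the same library except for NOX4. In 3CK, DUOX2 and DUOXA2 lay below all 3 keratins, and NOS2 below KRT8 and KRT18. The part that free RNA or mixed barcodes had in these values was not tested.

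Shares of cells were compared at 1 depth by drawing 5000 UMIs from each cell. The 944 CNT and 335 3CK cells with fewer were not counted. DUOX2 was detected in 27.2% of 1060 CNT epithelial cells (24.5% to 30.0%) and in 75.1% of 776 3CK epithelial cells (71.9% to 78.1%). In mesenchymal cells the shares were 8.75% of 320 in CNT and 20.6% of 107 in 3CK. Without thinning, the epithelial shares were 48.4% and 85.2% and the mesenchymal shares 20.8% and 68.5%, at median depths of 37807 and 72198 UMIs in epithelial and 23220 and 65363 UMIs in mesenchymal cells of CNT and 3CK. DUOXA2 was detected in 13.7% of thinned epithelial cells in CNT and 69.2% in 3CK, or 26.9% and 81.2% of unthinned cells, and in 11.3% and 27.1% of thinned mesenchymal cells.

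NOS2 was detected in 0.377% of thinned CNT epithelial cells and in 19.2% of 3CK epithelial cells (16.5% to 22.2%), beside 0.313% and 5.61% of mesenchymal cells. NOX4 went from 12.5% of thinned epithelial cells in CNT (10.5% to 14.6%) to 0.644% in 3CK. In mesenchymal cells NOX4 was detected in 0.938% of CNT cells and in 0 of 107 3CK cells, which allows a share of up to 2.80% of cells with a UMI by the limit of 3 counts and 3.39% by the exact interval. CYBA was found in most cells, with 92.1% of CNT and 97.7% of 3CK epithelial cells. NOX1 was at 0.849% and 1.80% of epithelial cells, with overlapping intervals. DUOX1 stood at 12.0% and 7.22%, and DUOXA1 at 7.45% and 6.57%, the latter with overlapping intervals.

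How the UMIs of a gene were spread over epithelial cells is given for thinned cells. In 3CK the richest 10% of epithelial cells held 35.1% of 2078 DUOX2 UMIs, 40.2% of 2209 DUOXA2 UMIs, 74.7% of 281 NOS2 UMIs and 22.6% of 7515 CYBA UMIs. The median thinned 3CK epithelial cell had 2 UMIs of DUOX2, 2 of DUOXA2 and 0 of NOS2. In CNT the richest 10% held 60.3% of DUOX2 UMIs and 86.6% of DUOXA2 UMIs. Fewer UMIs of a gene by themselves raise such a share, so the values are given side by side and compared neither between libraries nor between genes of unequal counts.

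**Figure D3:**
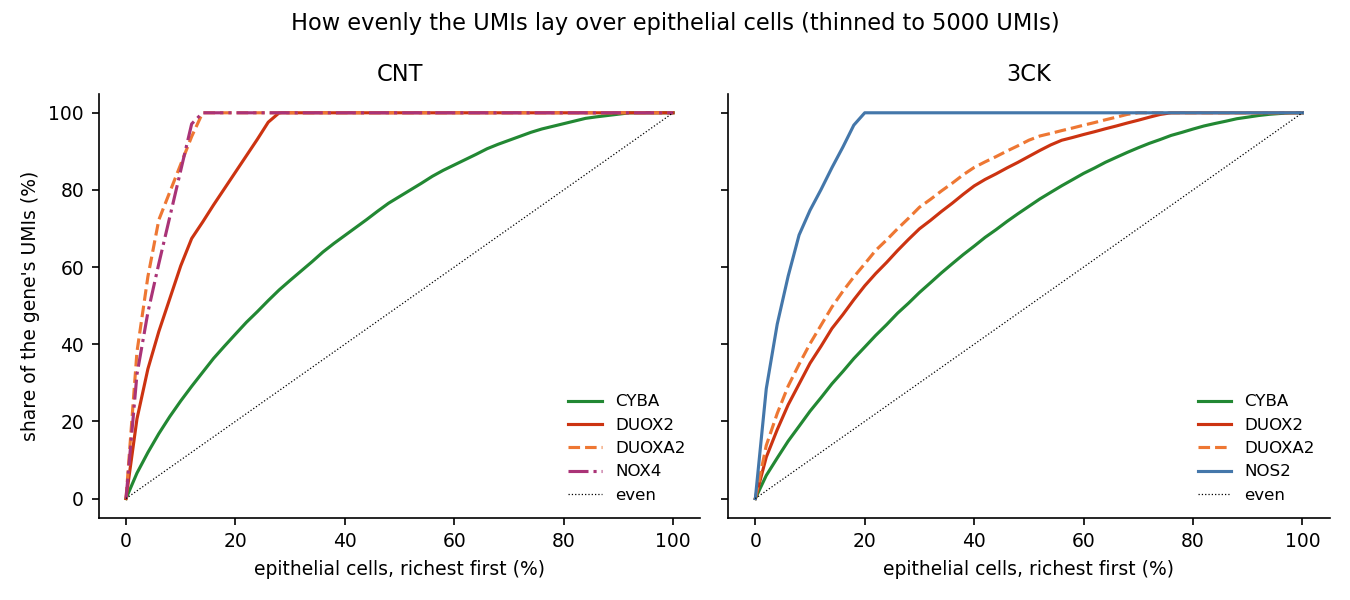
Share of each gene's UMIs held by epithelial cells ordered from richest to poorest, in cells thinned to 5000 UMIs. The dotted line stands for an even spread. In 3CK the DUOX2 and DUOXA2 curves run close to each other at 35.1% and 40.2% for the first 10% of cells, and the NOS2 curve, drawn from 281 UMIs against 2078 of DUOX2, is at 74.7% there.

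DUOXA2 was found more often in epithelial cells that also held DUOX2 than in those that did not, in both libraries. In CNT epithelial cells, DUOXA2 was detected in 31.6% of 288 cells with DUOX2 (26.3% to 37.3%) and in 6.99% of 772 cells without it (5.30% to 9.03%). In 3CK it was detected in 77.7% of 583 cells with DUOX2 (74.1% to 81.0%) and in 43.5% of 193 cells without it (36.4% to 50.8%). Both genes were present in 8.58% of CNT and 58.4% of 3CK epithelial cells. Across epithelial cells with at least 10000 UMIs, the Pearson correlation of their log levels was 0.58 over 1011 CNT cells and 0.58 over 730 3CK cells. These cells share a library and differ in depth, so the correlations are descriptions. DUOX1 and DUOXA1, detected in far fewer cells, correlated at 0.36 in CNT and 0.42 in 3CK.

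NOS2 and DUOX2 correlated at 0.36 over the 730 3CK cells. In 3CK epithelial cells DUOX2 was detected in 89.3% of 149 cells with NOS2 (83.1% to 93.7%) and in 71.8% of 627 cells without it (68.1% to 75.3%). Seen from DUOX2, the share of cells with NOS2 was 8.29% at 0 DUOX2 UMIs and 34.4% at 5 or more, and that of DUOXA2 was 43.5% and 86.6%. Among CNT epithelial cells 4 of 1060 had a NOS2 UMI, and none of the 288 cells with DUOX2 did, which allows a share of up to 1.04% by the limit of 3 counts and 1.27% by the exact interval. CYBA went another way in 3CK: its mean per thinned cell was 10.7 UMIs at 0 DUOX2 UMIs and 7.67 at 5 or more, and its correlation with DUOX2 was -0.28 over the 730 cells. DUOX2 and CYBA also moved in opposite directions with the nuclear RNA MALAT1 in 3CK, as given below. The part of MALAT1 content in this correlation was not tested.

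**Figure D4:**
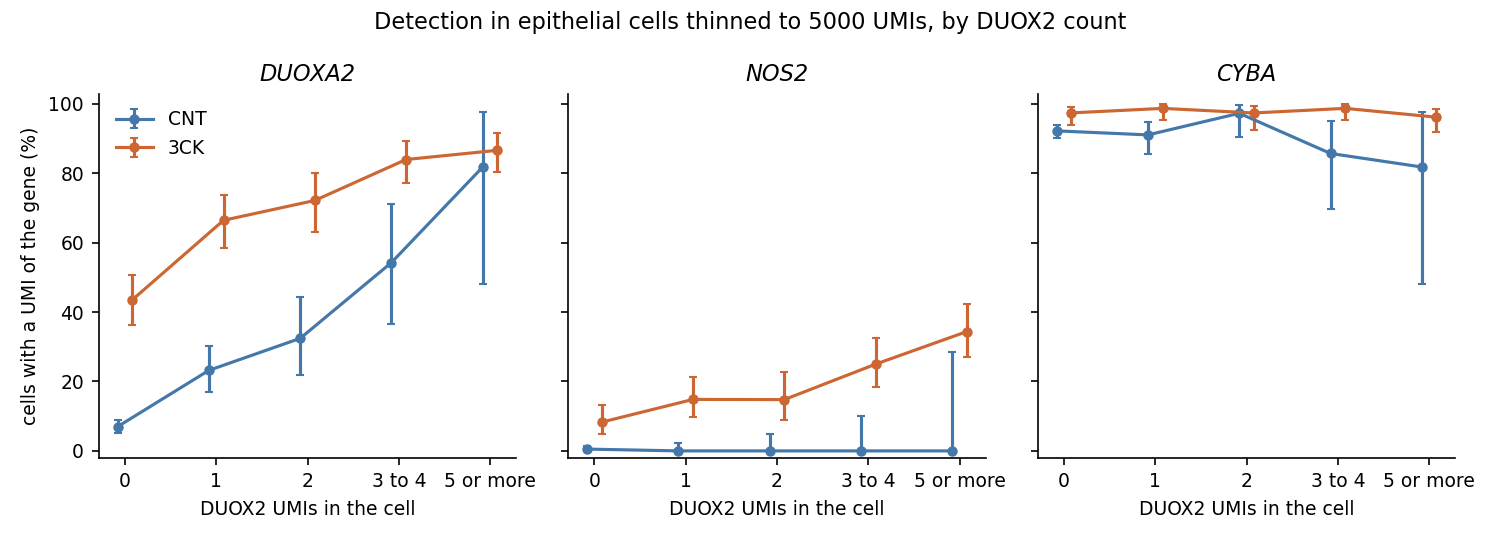
Share of epithelial cells with a UMI of DUOXA2, NOS2 or CYBA against the number of DUOX2 UMIs in the same cell, after thinning to 5000 UMIs, with exact binomial 95% intervals. In 3CK the share with DUOXA2 goes from 43.5% to 86.6% and that with NOS2 from 8.29% to 34.4%, while CYBA stays above 95%.

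The number of DUOXA2 UMIs per DUOX2 UMI differed between libraries and between classes. In epithelial cells it was 0.686 in CNT (0.660 to 0.713) and 1.20 in 3CK (1.18 to 1.22). In mesenchymal cells it was 2.00 in CNT (1.81 to 2.21) and 2.40 in 3CK (2.19 to 2.64). These mesenchymal values depended on the class limits and on few barcodes. The 5 richest barcodes held 41.8% of the DUOXA2 UMIs in CNT and 47.2% in 3CK. Under the stricter class limits, mesenchymal cells held 130 DUOXA2 and 149 DUOX2 UMIs in CNT, and 542 and 114 in 3CK. In cells of neither class the number of DUOXA2 UMIs per DUOX2 UMI was 0.278 and 0.557. Each class of 3CK thus lay above the same class of CNT, and the intervals of CNT and 3CK mesenchymal cells overlapped slightly. The order turned in barcodes with 200 to 500 MALAT1 UMIs per 10000, at 0.701 in CNT (0.625 to 0.785) and 0.463 in 3CK (0.443 to 0.484). DUOXA1 UMIs per DUOX1 UMI ranged from 0.504 to 0.841 over the same classes.

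MALAT1, an RNA kept in the nucleus, varied widely between barcodes and moved with these levels. In 3CK, DUOX2 was at 332 CPM in barcodes with MALAT1 under 50 UMIs per 10000 and at 840 CPM in those with 500 or more. DUOXA2 went from 512 to 302 CPM and CYBA from 2240 to 398 CPM over the same ranges. The number of DUOXA2 UMIs per DUOX2 UMI was 1.54, 0.935, 0.463 and 0.359 from the lowest to the highest MALAT1 range in 3CK, and 0.869, 0.555, 0.701 and 0.217 in CNT. In CNT, NOX4 was at 16.7 CPM in the lowest and 84.1 CPM in the highest range. CNT barcodes with MALAT1 between 50 and 200 were shallow, with a median of 1149 UMIs.

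In all 4 MALAT1 ranges, 3CK and CNT differed in the same direction as over all cells for 7 of the 8 genes, with DUOXA1 the exception. The log2 ratio of DUOX2 lay between 2.26 and 2.97, that of DUOXA2 between 2.36 and 3.69, that of NOS2 between 5.92 and 6.81 and that of NOX4 between -6.69 and -4.55. CYBA lay between 0.79 and 1.53, and DUOX1 between -0.93 and -0.08, with 1 of 4 intervals including no difference. NOX1 lay between 0.09 and 2.23, and its interval included no difference in the range from 50 to 200. DUOXA1 lay between -0.40 and 0.27, with 3 of 4 intervals including no difference. Mitochondrial shares were also higher in barcodes rich in MALAT1, with medians of 1.81%, 2.97%, 5.11% and 4.63% from the lowest to the highest range of 3CK. The part of nuclear RNA or damaged cells in the levels was not tested beyond these ranges.

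**Figure D5:**
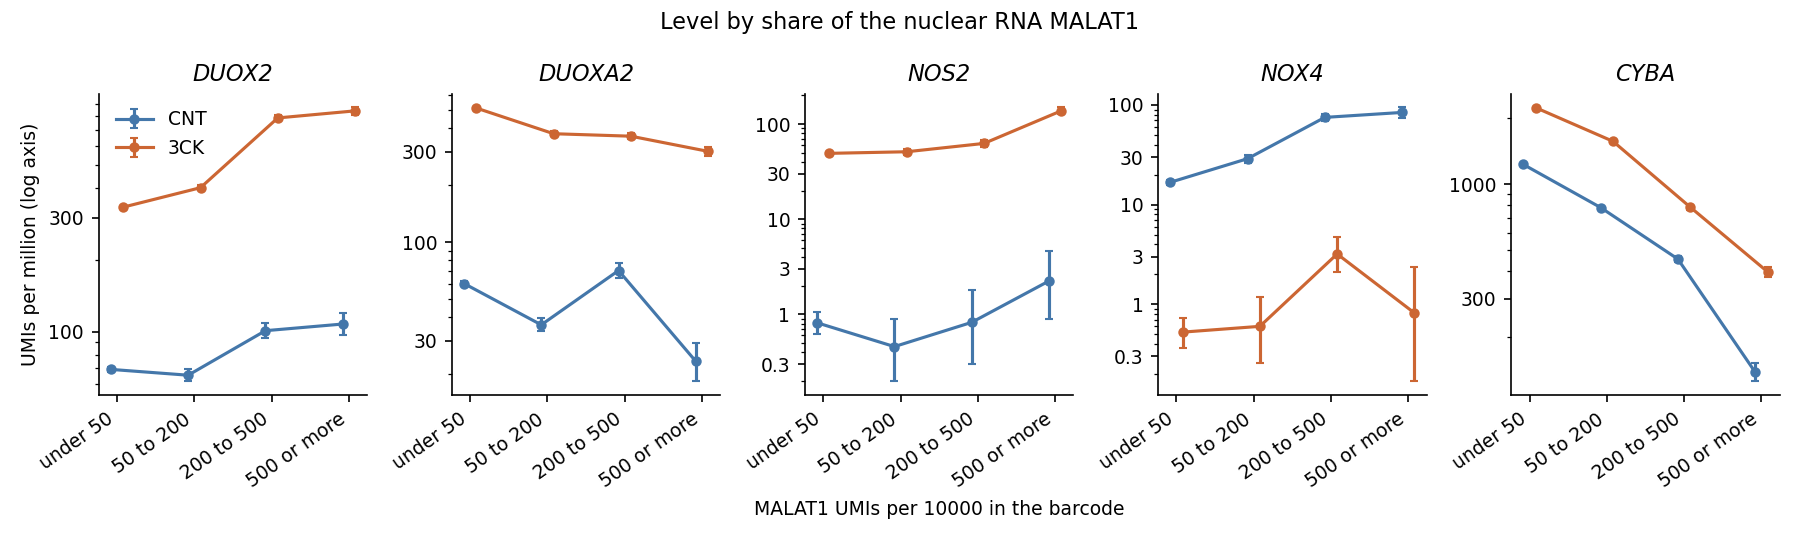
Level of 5 genes (CPM, log axis) in barcodes grouped by MALAT1 UMIs per 10000, with exact Poisson 95% intervals. DUOX2 in 3CK goes from 332 to 840 CPM and CYBA from 2240 to 398 CPM, and in each range 3CK stays above CNT for DUOX2, DUOXA2, NOS2 and CYBA and below it for NOX4.

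Within the epithelial class, DUOX2 and NOS2 were higher in 3CK cells that carried enterocyte markers. In 25 cells with at least 2 UMIs per 10000 of FABP2 and RBP2, 2 absorptive cell genes, NOS2 was at 290 CPM (256 to 327), beside 61.1 CPM (59.3 to 63.0) in the other 991 epithelial cells. DUOX2 was at 899 CPM in those 25 cells and 469 CPM in the rest. NOX1 was at 14.4 CPM (7.69 to 24.7) in them and 4.44 CPM (3.95 to 4.96) in the rest, and in CNT at 8.91 and 1.24 CPM. Their median depth was 21372 UMIs, beside 73614 UMIs in the rest.

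DUOX2 was lower in epithelial cells with at least 5 UMIs per 10000 of 5 cell cycle markers, at 266 CPM in 44 3CK cells and 482 CPM in the other 972. CNT showed the same order, 21.5 and 85.5 CPM. Cells with these markers were shallow, with median depths of 1625 UMIs in CNT and 3019 UMIs in 3CK. Across ranges of the hepatic gene TTR the ratio of 3CK over CNT kept its direction for DUOX2, DUOXA2, NOS2, NOX4 and CYBA. DUOX2 was at 3.22 on the log2 scale with TTR under 50 UMIs per 10000, 2.15 from 50 to 500 and 2.38 above, and NOX4 at -4.70, -5.42 and -3.77.

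The genes whose levels were most like that of DUOX2 were sought over the 730 3CK epithelial cells with at least 10000 UMIs, among 14427 genes found in at least 10% of them. DUOXA2 came first with a Pearson correlation of 0.58, ahead of the 5 closest genes outside the set: SPTBN1 (0.57), RBM47 (0.56), QSOX1 (0.53), DST (0.51) and STAT3 (0.50). For NOS2 over the same cells the closest were TSPAN8 (0.47), TMPRSS2 (0.42), MUC13 (0.42), CEACAM5 (0.41) and CEACAM6 (0.41), genes of membrane proteins found on gut epithelium, and DUOX2 ranked 9 at 0.36. For NOX4 over 1011 CNT epithelial cells they were GHR (0.57), DAB1 (0.57), KIF26B (0.56), CSRNP3 (0.52) and PCDH7 (0.52). All these cells share a library, and depth and MALAT1 content vary among them.

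Partners and relatives of the oxidases were mostly scarce. Of 17 listed genes, 9 reached 1 CPM in at least 1 library, 3 of them at least 2-fold higher in 3CK and none at least 2-fold lower, beside 6.97% and 11.4% of all genes compared, with a median log2 ratio of 0.54. RAC1, the small GTPase that activates NOX1, was the most abundant at 515 and 668 CPM (log2 ratio 0.37). RAC2, its blood-cell relative, had the largest ratio, from 14.9 to 66.6 CPM (log2 ratio 2.16, 2.07 to 2.24), and PXDN, a matrix peroxidase, the smallest at -0.57. NCF1, an organiser of the phagocyte oxidase, was at 1.46 and has near-identical pseudogene copies that make its count uncertain. The NOX1 organiser NOXO1 was at 11.9 and 10.1 CPM and its activator NOXA1 at 4.91 and 7.18 CPM. NCF1 and RAC2 are also leukocyte genes. The 8 leukocyte markers summed to 88.5 CPM in CNT and 131 CPM in 3CK, with 2 of 8 under 1 CPM in each, and their part in these values was not tested.

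Genes that remove superoxide and peroxide showed no common direction. All 25 of the 26 listed genes that were matched by symbol reached 1 CPM, with 2 at least 2-fold higher, 1 lower and a median log2 ratio of 0.00. Over all genes compared, 6.97% were higher and 11.4% lower, so the share of higher genes in the list was near the background. SOD2, the mitochondrial superoxide dismutase, had the largest ratio, at 72.9 CPM in CNT and at 913 CPM in 3CK (log2 ratio 3.65, 3.61 to 3.68). It was close to this in both classes, at 3.74 in epithelial and 3.62 in mesenchymal cells. CAT, catalase, had the smallest, at 2.61 and 0.806 CPM (log2 ratio -1.70, -2.09 to -1.32). PRDX1, the most abundant peroxiredoxin of the list, was at 1244 and 948 CPM (log2 ratio -0.39).

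For nitric oxide synthesis and arginine use, 24 of 25 genes reached 1 CPM, with 2 at least 2-fold higher, 6 at least 2-fold lower and a median log2 ratio of -0.26. Beside the 6.97% of all genes that were higher, the 2 higher genes were near the background, and 11.4% of all genes were lower. The arginine transporter SLC7A1 had the largest ratio, from 12.9 to 30.0 CPM (log2 ratio 1.22, 1.13 to 1.32). GUCY1A1, a subunit of the nitric oxide receptor guanylate cyclase, had the smallest, from 7.37 to 1.88 CPM (log2 ratio -1.97, -2.22 to -1.73).

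Of 16 signalling genes known to induce DUOX2, DUOXA2 or NOS2, all reached 1 CPM, 9 were at least 2-fold higher in 3CK and 1 at least 2-fold lower, beside 6.97% and 11.4% of all genes compared, with a median log2 ratio of 1.11. IRF1, an interferon-induced factor, had the largest ratio, at 23.3 and 376 CPM (log2 ratio 4.01, 3.95 to 4.08), and IL1R1, the IL-1 receptor, the smallest, at 30.6 and 11.7 CPM (log2 ratio -1.38, -1.49 to -1.28). In epithelial cells 10 of the 16 were at least 2-fold higher and none lower, beside 8.47% and 12.2% of all genes. In mesenchymal cells 3 were higher and 1 lower, beside 6.04% and 16.7%. STAT3, a transducer of cytokine signals, was at 1.61 in epithelial and -0.05 in mesenchymal cells, and is named here after its values were seen. The genes of this list were chosen because they respond to, or carry, the signals that were added, so its count is not independent evidence of a direction.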

How the data were processed

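The libraries, 1 per group, were made with 10x Genomics 3' v3.1 single-cell chemistry, with about 8300 cells loaded into each per the labels' protocols. Values are raw UMI counts that the authors deposited as 1 matrix per library. Cell Ranger 7.1.0 made them per the file headers, and the genome build was GRCh38 per the submitters' processing notes. Whether intronic or antisense reads were counted is not given in the sources used here. Reads from the end of a transcript do not tell isoforms apart.

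Barcodes with at least 500 genes and at most 20% mitochondrial UMIs were kept, and the highest doublet scores (Scrublet in scanpy 1.11.5, 0.8% per 1000 barcodes) were removed, 52 in CNT and 16 in 3CK. This left 2487 of 3257 CNT and 1398 of 1641 3CK barcodes, with 101582054 and 91863865 UMIs. No barcode was shared. UMIs were summed per class, scaled to CPM and given exact Poisson intervals. Ratios carry intervals from the exact binomial share of both counts, differences of log2 ratios a normal approximation of the counting error, and shares exact Clopper-Pearson intervals. Comparisons took in genes that reached 1 CPM in at least 1 of the groups compared, and 2-fold was the size used for counts. A sum of 0 UMIs was set to 3 UMIs, which makes a ratio a bound. Ratios and intervals were run on simulated Poisson sums with known folds. Such sums hold counting error only, so this run says nothing about spread between barcodes or libraries. Scaling by TMM used edgeR.

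All 8 genes are named throughout. Of each pathway list the text names the most abundant gene and the largest and smallest ratio, and for likeness the 5 closest genes. Some genes that this rule selects are not reported here. Members and lists were chosen with earlier results of these data known. Sequences and positions are from RefSeq. Alternatives changed the barcode filters, doublet removal, depth, scaling, weights, class limits and thinning, and 1 more, without barcodes rich in MALAT1, was added after seeing the data.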

Additional observations from a re-analysis of the deposited data

Results flagged for a closer look

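NOX1 differed in direction between the classes. Its log2 ratio of 3CK over CNT was 1.32 in epithelial cells (1.03 to 1.61), from 139 UMIs in CNT and 320 in 3CK, and -1.70 in mesenchymal cells (-4.88 to 0.42), from 14 and 2 UMIs. The mesenchymal interval includes no difference, and with 1 library per group the difference between the classes was not tested.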

How the results depend on the processing

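No paired analysis was possible because each group has 1 library. Over all kept cells, 4 genes higher and 1 lower by at least 2-fold were counted under every alternative run. The log2 ratios of DUOX2, DUOXA2, NOS2 and NOX4 kept their direction under all of them and left the counting interval under some. DUOX2 over all cells was 2.43 with at least 1000 genes and at most 10% mitochondrial UMIs, 2.57 with TMM factors, 2.38 on a total without mitochondrial, ribosomal and the 50 most abundant genes, and 2.32 without barcodes at or above 200 MALAT1 UMIs per 10000. DUOXA2 was 3.16 with TMM, 2.98 on the reduced total, 2.99 with equal weight per cell and 3.13 without barcodes rich in MALAT1. With equal weight NOS2 was 5.71 and NOX4 was -5.49. Epithelial DUOX2 was 2.45 with the stricter filter, 2.38 on the reduced total, 2.45 with stricter class limits and 2.40 without barcodes rich in MALAT1. Mesenchymal DUOX2 was 1.36 with TMM and 0.81 with equal weight. The scalings shift all genes alike: TMM by 0.09 over all, 0.03 in epithelial and 0.18 in mesenchymal cells, and the reduced total by -0.10, -0.12 and -0.04.

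The share of 3CK cells with DUOX2 was 45.3% at 2000 UMIs and 75.7% at 10000 UMIs per cell, and that of DUOXA2 among epithelial cells with DUOX2 was 59.1% and 86.5%, so these shares hold for a given depth only. Stricter class limits left 30 mesenchymal 3CK cells without a NOX1 or NOX4 UMI. Against 4 and 8 UMIs in CNT this gives log2 bounds of at most 1.22 for NOX1 and at most 0.22 for NOX4, and at least -0.91 for NOX4 in epithelial over mesenchymal 3CK cells, none of which sets a direction. DUOX1 in mesenchymal cells was then 1.53 and DUOXA1 0.63, from 14 and 8 UMIs in 3CK. The number of mesenchymal 3CK cells limits every ratio in that class.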

Other observations

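LCN2, the gene of an antimicrobial siderophore-binding protein that inflamed epithelium releases, had a UMI in 268 of the 776 thinned 3CK epithelial cells and 21 of the 1060 in CNT. In 3CK, NOS2 was at 98.3 CPM (94.4 to 102) in cells with LCN2 and 45.1 CPM (43.1 to 47.1) in cells without it. DUOX2 was at 527 and 446 CPM, and DUOXA2 at 613 and 548 CPM. CYBA was at 2313 and 2065 CPM. Median depths of the 2 sets were 92914 and 90677 UMIs. In the 21 CNT cells with LCN2, NOX4 was at 7.30 CPM (3.77 to 12.8), beside 27.1 CPM (26.0 to 28.4) in the 1039 without it. DUOX2 and DUOXA2 had the reverse order in CNT. DUOX2 was at 59.0 CPM (47.9 to 72.0) with LCN2 and 84.5 CPM (82.4 to 86.6) without it. DUOXA2 was at 42.6 CPM (33.2 to 53.8) and 57.9 CPM (56.2 to 59.6). CYBA kept the order of 3CK, at 1502 and 1267 CPM.

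DUOX1 and NOX4 in CNT were higher in cells of neither class than in epithelial cells. DUOX1 was at 38.9 CPM (34.1 to 44.2) in the 255 cells of neither class and 21.9 CPM (20.9 to 23.0) in epithelial cells. For NOX4 the levels were 79.2 CPM (72.3 to 86.6) and 26.9 CPM (25.7 to 28.1). Cells of neither class had a median depth of 12865 UMIs, beside 37807 in epithelial cells, and EPCAM stood at 97.2 CPM in them. The 5 richest of these cells held 20.3% of their DUOX1 UMIs and 33.8% of their NOX4 UMIs. Over all CNT barcodes, DUOX1 went from 14.3 CPM in the lowest MALAT1 range to 61.1 CPM in the highest. NOX4 went from 16.7 to 84.1 CPM, and 33 of the 105 barcodes in the highest range were epithelial. The part of MALAT1 content in the difference between classes was not tested.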
